A study of Drosophila melanogaster with 13 samples.

Results

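The 9 genes described here are the yolk protein genes Yp1, Yp2 and Yp3, the fatty acid synthesis genes FASN1 and ACC, the phosphatidate phosphatase Lpin, the triglyceride lipase bmm, the lipoprotein precursor apolpp and the storage protein gene Lsp2. They were picked by gene name from the 18344 genes in the deposited expression files, with earlier results of these data known. The study asked how Rab proteins bear on microtubules in a degenerating fly eye, and it sequenced RNA from heads of Drosophila melanogaster adults aged 5 days. The 13 libraries fall into 3 groups, with genotypes GMR-Gal4/UAS-Rab5 RNAi (n = 5), GMR-Gal4/UAS-Rab7 RNAi (n = 4) and GMR-Gal4/WT (n = 4, the controls). All 3 groups carry the GMR-Gal4 driver, which per the labels acts in the retina of pupae and in the eye of adults, and the labels name no driver for the fat body. Each gene was targeted by 1 RNAi genotype, so the RNAi and the background of its line cannot be told apart. The labels give neither the sex of the flies nor whether replicates were separate crosses, and p-values therefore reflect only the spread among these libraries, which may be technical.

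The fat body is the insect organ of fat storage and metabolism, and a layer of it lies around the brain inside the head capsule. Its cells build fatty acids through ACC and FASN1, turn them into triglyceride through steps that include Lpin, release them again through bmm, and export lipid on lipophorin particles whose backbone is made from apolpp. The same cells secrete storage proteins such as Lsp2 and, in adult females, the yolk proteins, which are taken up by oocytes.

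The targeted genes and the marker genes were checked first. Rab5, the GTPase of early endosomes, averaged 57.7 ± 5.56 FPKM in Rab5 RNAi heads and 116 ± 4.54 FPKM in controls (SD, n = 5 and 4), a log2 difference of -0.99 (limma adjusted p = 1.9e-05). FPKM is a read count scaled to gene length and library size. Rab7, the GTPase of late endosomes, averaged 97.7 ± 9.54 FPKM in heads labelled as Rab7 RNAi, against 100 ± 3.93 FPKM in controls (SD, n = 4 each), a log2 difference of -0.04 with a 95% interval of -0.21 to 0.13 (limma adjusted p = 0.879). Its transcript was therefore not detectably lower, and these are called the Rab7-labelled libraries. Of 10 fat body markers other than the 9 genes, 8 reached a mean of 1 FPKM; Fbp1, a larval fat body receptor, and fit stayed near 0. The 10 markers summed to 97.5 to 163 FPKM in Rab5 RNAi heads, 135 to 240 FPKM in Rab7-labelled heads and 188 to 267 FPKM in controls, and GNBP-like3 alone ranged from 5.67 to 149.8 FPKM over the 13 libraries. Photoreceptor markers, 13 genes, summed to 1846 to 8990 FPKM in Rab5 RNAi heads, 18280 to 41040 FPKM in Rab7-labelled heads and 34780 to 46080 FPKM in controls. Most of this sum came from ninaE and Arr2, which averaged 14662 and 4856 FPKM beside a mean sum of 23718 FPKM. Limma called 12 of the 13 lower in Rab5 RNAi heads than in controls, beside 9.28% of all tested genes. In whole heads, fewer cells of a type and less RNA per cell cannot be told apart.

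Libraries of 1 group also differed among themselves. The first principal component of within-group deviations, computed without the 9 genes, carried 35.2% of that variance and split the libraries into set 1, with 7 libraries, and set 2, with 6. Set 2 held the Rab5 RNAi libraries 1 and 5, libraries 1 and 4 of the Rab7-labelled group and controls 1 and 4; control 1 lay close to the boundary, with a score of 0.00591. Act57B, a muscle actin, was at 1438 to 1574 FPKM in set 2 apart from control 1, and at 653 to 846 FPKM in the other libraries. The 14 muscle markers summed to 2480 to 4462 FPKM in Rab5 RNAi heads, 2403 to 4543 FPKM in Rab7-labelled heads and 2820 to 4292 FPKM in controls. The labels name no batch, so the sets are given as a measured split of the libraries and what made them was not tested. Act57B and the other tested marker genes outside the 9 were among the genes that gave the component. Their split by set is therefore partly fixed in advance. The sets come from these same libraries, so a fit by set lowers the within-group spread in advance. Set 1 held 3 Rab5 RNAi, 2 Rab7-labelled and 2 control libraries. Differences and p-values from fits by set are therefore descriptions.

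Yp3 was the only abundant yolk protein transcript, and it was lower in Rab5 RNAi heads. Yp3 (FBgn0004047, chromosome X, 13759546 to 13761547, plus strand) had 5.36, 19.3, 22.6, 22.3 and 5.29 FPKM in Rab5 RNAi heads 1 to 5, against 47.5, 52.1, 43.5 and 49.1 FPKM in controls 1 to 4. In Rab7-labelled heads 1 to 4 it had 12.5, 32.5, 42.9 and 15.4 FPKM. Every Rab5 RNAi and every Rab7-labelled library lay below the lowest control, while the Rab5 RNAi and Rab7-labelled libraries overlapped. The log2(FPKM + 1) difference between Rab5 RNAi and controls was -1.86 (SE 0.46, limma adjusted p = 0.0153). For Rab7-labelled heads against controls it was -1.03, with a 95% interval of -2.10 to 0.02 (limma adjusted p = 0.299), which did not pass the threshold of 0.05. Between Rab5 RNAi and Rab7-labelled heads the difference was -0.82 (95% interval -1.83 to 0.18, limma adjusted p = 0.294). Both comparisons with controls share the control libraries.

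Within each RNAi group Yp3 split with the sets, and in controls it did not. The controls also lay closer together on the component that gave the sets, with scores of -0.0935 to 0.113. Scores were -0.385 to 0.532 in Rab5 RNAi libraries and -0.176 to 0.175 in Rab7-labelled libraries. The groups are therefore not compared at an equal spread of scores. In Rab5 RNAi heads Yp3 had 5.29 to 5.36 FPKM in set 2 and 19.3 to 22.6 FPKM in set 1. Rab7-labelled heads had 12.5 to 15.4 FPKM in set 2 and 32.5 to 42.9 FPKM in set 1. Controls had 47.5 to 49.1 FPKM in set 2 and 43.5 to 52.1 FPKM in set 1. Control 4, whose Act57B was high, had 49.1 FPKM of Yp3. Photoreceptor markers were among the genes that gave the sets, so their split by set is partly fixed in advance and is only described. The photoreceptor marker sum was 1846 to 2247 FPKM in set 2 and 6763 to 8990 FPKM in set 1 of the Rab5 RNAi group. It was 18280 to 19120 FPKM in set 2 and 37210 to 41040 FPKM in set 1 of the Rab7-labelled group, and 34780 to 43490 FPKM in set 2 and 41200 to 46080 FPKM in set 1 of the controls. Rab5 RNAi heads of set 1 had more Yp3 and a lower photoreceptor sum than Rab7-labelled heads of set 2. These libraries differ in both group and set. The part of eye tissue in the Yp3 difference was not tested.

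**Figure D1:**
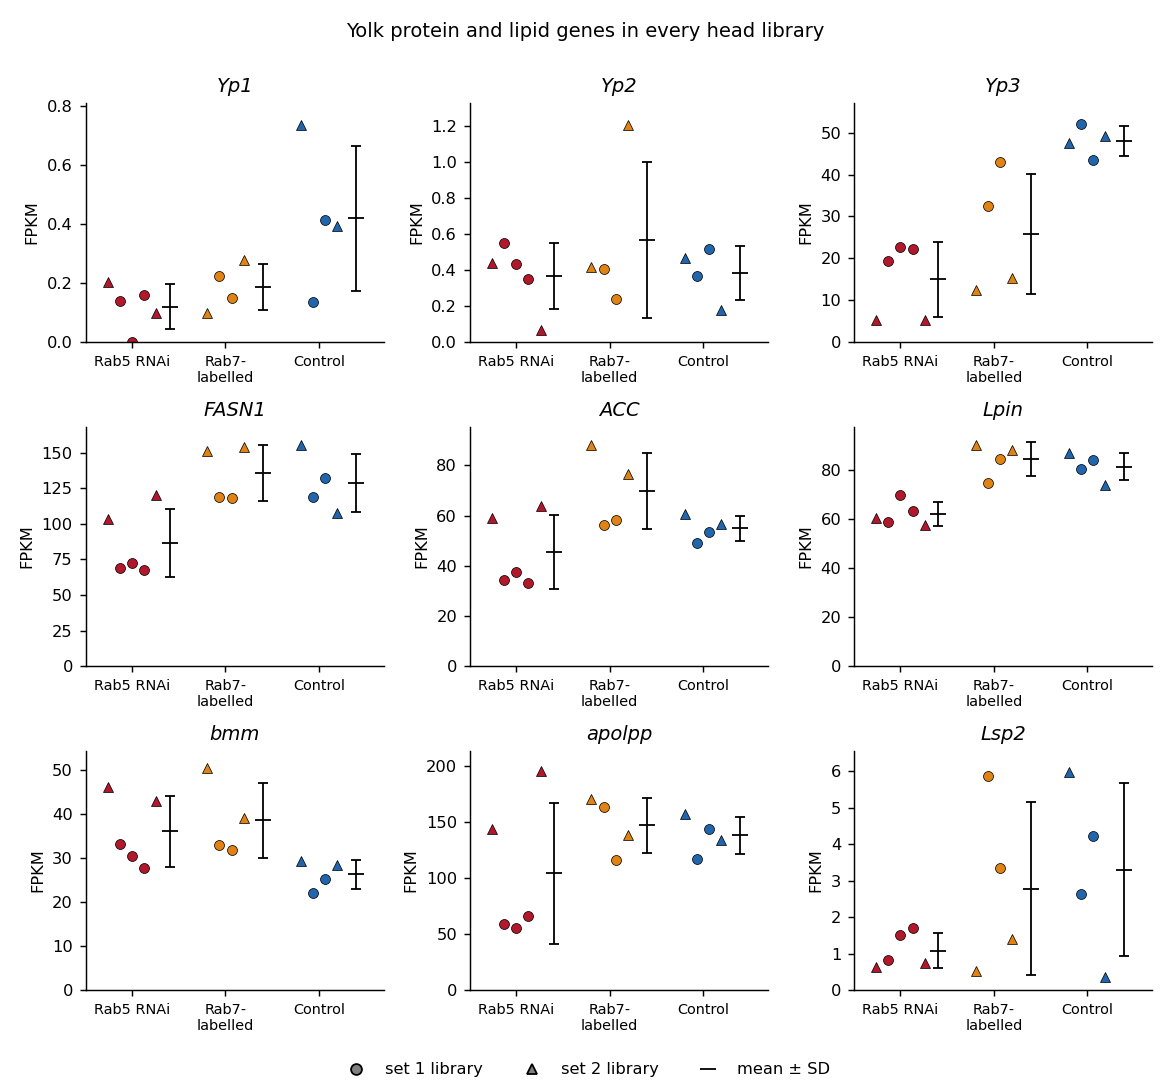
FPKM of the 9 genes in every library, with a separate linear axis from 0 for each gene; circles are set 1 libraries, triangles set 2 libraries, and bars give the mean ± SD of each group. The Rab5 RNAi values of Yp3 (5.29 to 22.6 FPKM) and Lpin (57.7 to 69.9 FPKM) lie below every control, while apolpp spans 55.5 to 196.0 FPKM within the Rab5 RNAi group.

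Yp1 and Yp2, neighbouring yolk protein genes, were barely detected. Yp2 (FBgn0005391, chromosome X, 10050951 to 10052636, minus strand) and Yp1 (FBgn0004045, chromosome X, 10053811 to 10055498, plus strand) are transcribed away from each other with 1174 bases between them. Yp1 had 0.203, 0.138, 0, 0.159 and 0.099 FPKM in Rab5 RNAi heads, 0.097, 0.223, 0.151 and 0.277 FPKM in Rab7-labelled heads and 0.735, 0.135, 0.413 and 0.392 FPKM in controls. These values rest on 0 to 22 reads per library, and the value of 0.735 FPKM in control 1 was the highest. The 0 in Rab5 RNAi 3 allows up to 0.101 FPKM, the value of 3 reads, for counting error only. Yp2 had 0.437, 0.549, 0.434, 0.348 and 0.0657 FPKM in Rab5 RNAi heads, 0.419, 0.407, 0.241 and 1.21 FPKM in Rab7-labelled heads and 0.465, 0.369, 0.514 and 0.178 FPKM in controls, on 2 to 35 reads per library. The groups overlapped for both genes. Both missed the minimum mean of 1 FPKM and were not among the 10038 genes tested. Fitted with all 16635 genes above 0 in any library, Yp1 differed by -0.33 between Rab5 RNAi and controls (limma adjusted p = 0.068) and Yp2 by -0.02 (limma adjusted p = 0.976).

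Transcripts of known sex bias were read beside the yolk proteins in every library. The lncRNAs roX1 and roX2, which assemble with the dosage compensation complex on the X chromosome of males, had 203 to 298 FPKM and 52.7 to 96.5 FPKM over the 13 libraries. Transcripts of msl-2, the complex subunit made as protein in males, ranged from 18.0 to 24.8 FPKM. The female-enriched head transcript fit stayed at 0 to 1.5 FPKM on 0 to 15 reads. Each of these ranges held in all 3 groups: roX1 was present and Yp1, Yp2 and fit were at or near 0 in every library. Between groups, roX1 and roX2 did not pass the test, with log2 differences of -0.00 and 0.05 in Rab5 RNAi heads against controls (limma adjusted p = 0.988 and 0.875). msl-2 fell by 0.22 on the log2 scale in Rab5 RNAi heads (limma adjusted p = 0.0358), a call that was lost when any 1 of 6 libraries was left out (adjusted p up to 0.0986). to, the male-enriched fat body gene takeout, averaged 34.1 ± 14.7 FPKM in Rab5 RNAi heads, 25.7 ± 2.93 FPKM in Rab7-labelled heads and 20.3 ± 2.79 FPKM in controls (SD, n = 5, 4 and 4). Every Rab5 RNAi library lay above every control for to, at a log2 difference of 0.65 (95% interval 0.17 to 1.12), which did not pass the test (limma adjusted p = 0.062). yl, the yolk protein receptor of oocytes, reached at most 0.0878 FPKM, and only Cp18 and Fcp3C of 16 ovary and eggshell markers had a mean of at least 1 FPKM.

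**Figure D2:**
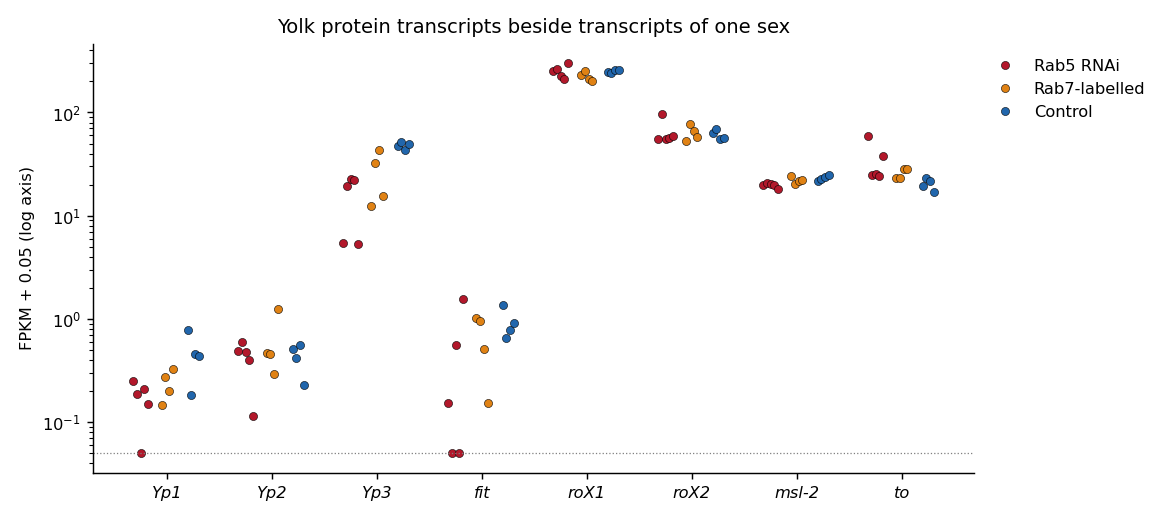
FPKM + 0.05 on a log axis for the 3 yolk protein genes and for transcripts of known sex bias, 1 point per library, coloured by group; the dotted line marks a value of 0. Yp1, Yp2 and fit lie near or below 1 FPKM in every group while roX1 lies at 203 to 298 FPKM and Yp3 at 5.29 to 52.1 FPKM.

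Fatty acid synthesis was represented by FASN1, the fatty acid synthase, and ACC, the acetyl-CoA carboxylase that supplies its malonyl-CoA. FASN1 (FBgn0283427, chromosome 2L, 3056598 to 3068177, plus strand) had 104, 68.9, 72.2, 67.6 and 121 FPKM in Rab5 RNAi heads 1 to 5, against 156, 119, 132 and 108 FPKM in controls 1 to 4. Rab7-labelled heads had 151, 119, 118 and 154 FPKM. The 3 low Rab5 RNAi libraries were those of set 1, and Rab5 RNAi 5 lay above the lowest 2 controls. FASN1 fell by 0.59 on the log2(FPKM + 1) scale in Rab5 RNAi heads against controls (SE 0.18, limma adjusted p = 0.0371). It also fell by 0.67 against Rab7-labelled heads (SE 0.18, limma adjusted p = 0.03). The first call was lost without Rab5 RNAi 2, 3 or 4 (limma adjusted p = 0.0785, 0.0782 and 0.0812) and without control 1, 2 or 3 (0.121, 0.0654 and 0.0908). The second was lost without Rab5 RNAi 2, 3 or 4 (0.0606, 0.0642 and 0.0647) and without Rab7-labelled 1 or 4 (0.0795 and 0.0815). In set 1 alone the difference from controls was larger, -0.84 on the log2 scale (limma adjusted p = 0.000371).

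ACC (FBgn0033246, chromosome arm 2R) ran beside FASN1 at a lower level. It had 59, 34.2, 37.6, 32.9 and 63.7 FPKM in Rab5 RNAi heads, 88, 56.3, 58.2 and 76.6 FPKM in Rab7-labelled heads and 60.8, 48.9, 53.4 and 56.5 FPKM in controls. Rab5 RNAi 2, 3 and 4 lay below every control, and Rab5 RNAi 1 and 5 lay within or above the controls. Over all libraries the difference between Rab5 RNAi and controls was -0.32 (95% interval -0.75 to 0.12, limma adjusted p = 0.315), and that against Rab7-labelled heads was -0.64 (95% interval -1.07 to -0.20, limma adjusted p = 0.0604). Within set 1, as a description, the difference from controls was -0.54 (limma adjusted p = 0.00471). The difference from Rab7-labelled heads passed without Rab5 RNAi 1 (limma adjusted p = 0.0329) and without Rab5 RNAi 5 (0.0198).

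Lpin, which makes diacylglycerol from phosphatidate and is a step of triglyceride synthesis, was lower in Rab5 RNAi heads than in both other groups. Lpin (FBgn0263593, chromosome arm 2R) had 60.7, 58.8, 69.9, 63.2 and 57.7 FPKM in Rab5 RNAi heads 1 to 5, against 87, 80.4, 84.4 and 74.1 FPKM in controls 1 to 4. Rab7-labelled heads 1 to 4 had 90.2, 74.8, 84.7 and 88.3 FPKM. No Rab5 RNAi library reached the lowest control or the lowest Rab7-labelled library, and the sets overlapped within the Rab5 RNAi and control groups. In Rab7-labelled heads Lpin was at 88.3 to 90.2 FPKM in set 2 and 74.8 to 84.7 FPKM in set 1. The log2 difference was -0.39 against controls (SE 0.08, limma adjusted p = 0.00537) and -0.44 against Rab7-labelled heads (SE 0.08, limma adjusted p = 0.00353). With set 1 alone, 3 Rab5 RNAi libraries against 2 controls, the difference was -0.36 and just missed the threshold (limma adjusted p = 0.0504). Against Rab7-labelled heads it was then -0.31 (limma adjusted p = 0.102).

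Lipid release and transport were represented by bmm and apolpp. bmm (FBgn0036449, chromosome 3L, 14776496 to 14786412, minus strand), the fly counterpart of adipose triglyceride lipase, had 46.3, 33.2, 30.5, 27.9 and 43 FPKM in Rab5 RNAi heads, 50.4, 32.9, 31.9 and 39.1 FPKM in Rab7-labelled heads and 29.3, 22.1, 25.4 and 28.4 FPKM in controls. All Rab7-labelled libraries lay above all controls, and in Rab5 RNAi heads only replicate 4 lay within the range of the controls. The log2 difference was 0.43 in Rab5 RNAi heads (95% interval 0.07 to 0.78, limma adjusted p = 0.0954) and 0.52 in Rab7-labelled heads (95% interval 0.15 to 0.90, limma adjusted p = 0.13), neither past the threshold. With the set, drawn from these same libraries, as a term in the fit, they were 0.47 and 0.52 (limma adjusted p = 0.00229 and 0.00643). That term also moved the calls over all tested genes. In Rab7-labelled heads 281 were then higher and 245 lower, against 165 and 157 without it. bmm was also higher in set 2 than in set 1 within each group, at 43.0 to 46.3 and 27.9 to 33.2 FPKM in Rab5 RNAi heads.

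apolpp (FBgn0087002, chromosome 4, 1060969 to 1077273, plus strand), the precursor of the apolipophorins, varied most within the Rab5 RNAi group. It had 144, 59.1, 55.5, 66.3 and 196 FPKM in Rab5 RNAi heads 1 to 5, against 157, 117, 144 and 134 FPKM in controls 1 to 4. Rab7-labelled heads had 171, 163, 116 and 139 FPKM. Rab5 RNAi 2, 3 and 4 lay below every other library, while Rab5 RNAi 5 was the highest of all 13. Over all libraries the log2 difference between Rab5 RNAi and controls was -0.59 (95% interval -1.30 to 0.12, limma adjusted p = 0.25), which did not pass the test. As a description, it was -1.10 in set 1 alone (limma adjusted p = 0.00138). Without Rab5 RNAi 5 it was -0.87 (limma adjusted p = 0.0347). In set 2 apolpp had 144 to 196 FPKM in Rab5 RNAi heads and 134 to 157 FPKM in controls. Inside the Rab5 RNAi group the summed fat body markers were lower where apolpp was lower, at 97.5 to 109 FPKM in set 1 and 161 to 163 FPKM in set 2. In the Rab7-labelled group the sum was 216 to 240 FPKM in set 1 and 135 to 149 FPKM in set 2. The markers did not move as one. Of 8 tested, limma called NLaz higher and GNBP-like3 and tobi lower in Rab5 RNAi heads against controls (log2 differences 0.53, -3.36 and -1.98). The median of the 8 was -0.48, and 17.5% of all tested genes were called. The tobi call was lost without control 1, 2 or 3 and in a voom fit of the recovered reads (adjusted p = 0.0786). The part of fat body content in these differences was not tested.

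**Figure D3:**
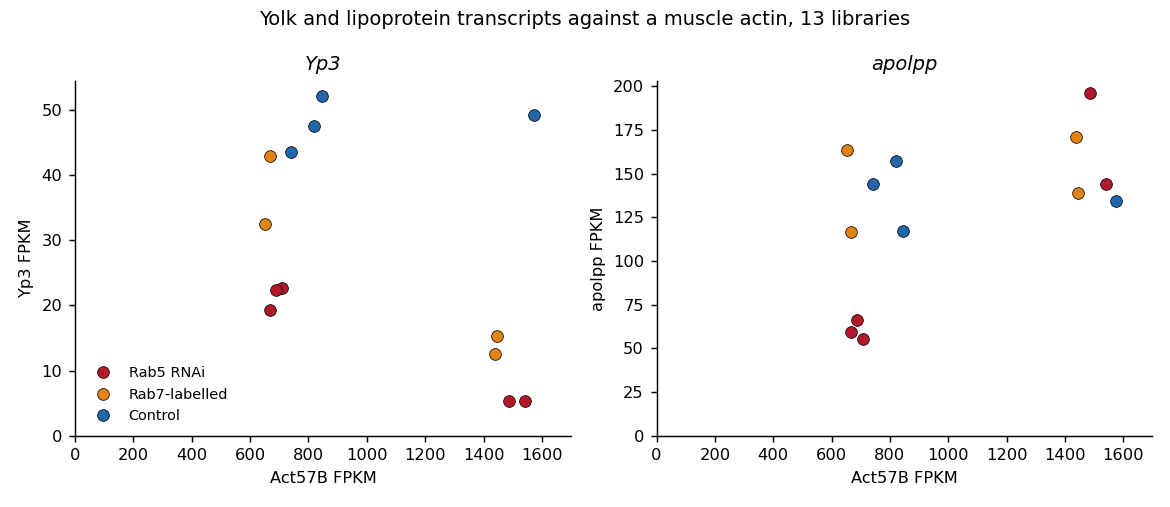
FPKM of Yp3 (left) and apolpp (right) against FPKM of the muscle actin Act57B, linear axes from 0, 1 point per library, coloured by group. The libraries with Act57B of 1438 FPKM or more include Rab5 RNAi 1 and 5, where Yp3 is lowest (5.36 and 5.29 FPKM) and apolpp reaches 144 and 196.0 FPKM, and control 4, where Yp3 stays at 49.1 FPKM.

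Lsp2 (FBgn0002565, chromosome 3L, 12129393 to 12131869, plus strand), a hexamerin that stores amino acids, was low and scattered. It had 0.637, 0.829, 1.51, 1.71 and 0.73 FPKM in Rab5 RNAi heads, 0.526, 5.87, 3.34 and 1.39 FPKM in Rab7-labelled heads and 5.97, 2.65, 4.23 and 0.371 FPKM in controls, on 16 to 275 reads per library. The lowest value of all belonged to control 4, so the groups overlapped. The log2 difference between Rab5 RNAi and controls was -0.85 (95% interval -1.89 to 0.18, limma adjusted p = 0.255), and without control 4 it was -1.32 (limma adjusted p = 0.0484). In set 1 alone it was -0.91 (limma adjusted p = 0.0425).

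Counted over the 7 tested genes, Rab5 RNAi heads had 0 higher and 3 lower (Yp3, FASN1 and Lpin) than controls, beside 17.5% of all tested genes called (8.26% higher and 9.28% lower). An unadjusted p below 0.05 was reached by 4, the fourth being bmm, and voom called 3. Yp3 and Lpin did not overlap with controls, and 18.6% of all tested genes did not overlap between these groups (8.93% higher and 9.69% lower). The median log2 difference was -0.59 over the 7 genes and -0.01 over all tested genes. The 7 genes were chosen with earlier results of these data known, so their counts and medians beside all tested genes are descriptions. In Rab7-labelled heads limma called 0 of the 7, a voom fit of the recovered reads also called 0, and 1 (bmm) had an unadjusted p below 0.05; 3.21% of all tested genes were called (1.64% higher and 1.56% lower). There Yp3 and bmm did not overlap with controls, beside 13.8% of all tested genes (6.87% higher and 6.89% lower), and the median was 0.08 over the 7 genes and -0.01 over all. Between Rab5 RNAi and Rab7-labelled heads 2 were lower (FASN1 and Lpin) and 0 higher, beside 11.1% of all tested genes called (4.67% higher and 6.40% lower). Lpin alone did not overlap, beside 11.5% of all tested genes (4.98% higher and 6.57% lower). There the median was -0.66 over the 7 genes and 0.01 over all. The other log2 differences between Rab7-labelled heads and controls were 0.32 for ACC, 0.08 for FASN1, 0.05 for Lpin, 0.08 for apolpp and -0.19 for Lsp2. The 95% interval was narrowest for Lpin (-0.13 to 0.24) and widest for Lsp2 (-1.28 to 0.91). Scaling to plain read totals moved the split of all calls, with 67.5% of calls higher in Rab5 RNAi heads against controls, where the deposited scaling gave 47.1%. Against Rab7-labelled heads it gave 74% and the deposited scaling 42.2%, with the median of all genes at 0.11 on the log2 scale.

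**Figure D4:**
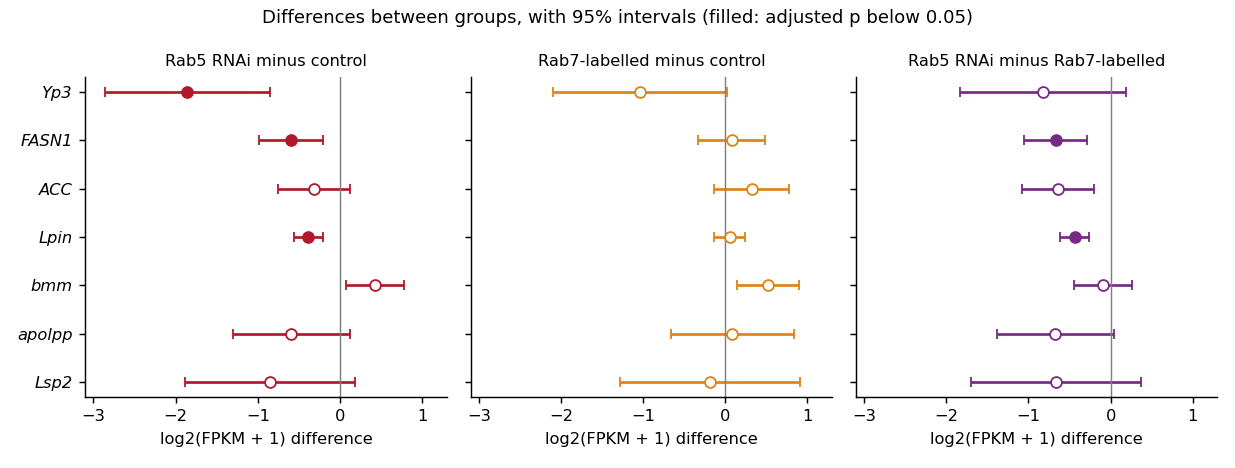
Difference in log2(FPKM + 1) for the 7 tested genes in the 3 comparisons, with 95% intervals from limma; filled points passed an adjusted p of 0.05 over all tested genes. Yp3, FASN1 and Lpin are filled for Rab5 RNAi minus control and FASN1 and Lpin for Rab5 RNAi minus Rab7-labelled, and no point is filled for Rab7-labelled minus control.

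The pathway lists, which hold the 7 tested genes too, had 94 tested genes in all. In Rab5 RNAi heads against controls limma called 18.1% of them (7 higher and 10 lower), near the 17.5% of all tested genes, and 16.1% of the 87 that remain without the 7. The counts per list are descriptions, and no list was tested against that background. Among 17 tested fatty acid synthesis genes FASN1 was the only one called; the median difference of the list was -0.11. Of 10 triglyceride synthesis genes, 1 rose and 1 fell, and their median was -0.10. The riser was fu12, an acylglycerophosphate acyltransferase that makes phosphatidate, the substrate of Lpin. fu12 averaged 32 ± 5.09 FPKM in Rab5 RNAi heads, 11.7 ± 2.39 FPKM in Rab7-labelled heads and 11.7 ± 1.86 FPKM in controls (SD, n = 5, 4 and 4), a log2 difference from controls of 1.38 (limma adjusted p = 5.0e-05). So 1 enzyme of this route was higher and the next, Lpin, was lower in the same heads. In Rab7-labelled heads fu12 differed from controls by -0.01 (95% interval -0.34 to 0.33).

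Of 15 lipolysis and lipid droplet genes, 1 rose and 2 fell, with a list median of -0.02, beside 17.5% of all tested genes called. Hsl, the hormone-sensitive lipase, averaged 28.2 ± 1.57 FPKM in Rab5 RNAi heads and 20.9 ± 1.17 FPKM in controls (SD, n = 5 and 4; log2 difference 0.42, limma adjusted p = 0.00128). CG9186 (sturkopf), a lipid droplet protein, averaged 16.6 ± 1.21 FPKM in Rab5 RNAi heads and 24.4 ± 1.4 FPKM in controls (SD; log2 difference -0.53, limma adjusted p = 0.000297). These calls held with any 1 library left out. Jabba, which anchors histones on droplets, fell by 0.65 on the log2 scale (limma adjusted p = 0.0272), a call lost when any 1 of 6 libraries was left out (adjusted p up to 0.0931). In Rab7-labelled heads Jabba differed from controls by -0.60 (95% interval -1.02 to -0.18, limma adjusted p = 0.116), which was not called. Between the RNAi groups it differed by -0.05. Of 13 beta oxidation genes, 0 rose and 2 fell, beside the same 17.5%: CPT2, the inner carnitine palmitoyltransferase, at a log2 difference of -0.32, and the acyl-CoA dehydrogenase gene CG4860 at -0.44 (limma adjusted p = 0.0414 and 0.0449). The first call was lost when any 1 of 10 libraries was left out and the second when any 1 of 9 was, and voom did not call CG4860 (adjusted p = 0.051).

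Of 9 lipoprotein and receptor genes, 2 rose and 0 fell, beside 8.26% of all tested genes higher and 9.28% lower. NLaz, a secreted lipocalin that carries lipids, averaged 58.3 ± 4.97 FPKM in Rab5 RNAi heads and 40.1 ± 1.8 FPKM in controls (SD, n = 5 and 4; log2 difference 0.53, limma adjusted p = 0.000941). LpR1, a lipophorin receptor, rose by 0.31 on the log2 scale (limma adjusted p = 0.015), and that call was lost without control 1 (adjusted p = 0.0545) or control 2 (0.0553) and in set 1 alone (0.0507). apolpp, Apoltp and Mtp, whose products form and load lipophorin, did not pass, with log2 differences of -0.59, -0.36 and -0.10. Of the 2 tested hexamerins, Lsp1beta averaged 3.64 ± 1.36 FPKM in Rab5 RNAi heads, 26.1 ± 14.6 FPKM in Rab7-labelled heads and 39.5 ± 25.7 FPKM in controls (SD, n = 5, 4 and 4). It fell by 2.76 on the log2 scale in Rab5 RNAi heads against controls (limma adjusted p = 0.00515). The controls were widely spread, from 6.0 FPKM in control 4 to 62 FPKM.

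Regulators of fat storage, 27 tested genes, had 3 higher and 2 lower in Rab5 RNAi heads, and a median of 0.01, beside 8.26% of all tested genes higher and 9.28% lower. ImpL2, a secreted protein that binds insulin-like peptides, averaged 82.1 ± 12.8 FPKM in Rab5 RNAi heads and 36.7 ± 8.44 FPKM in controls (SD, n = 5 and 4; log2 difference 1.16, limma adjusted p = 0.000332). InR, the insulin receptor, averaged 9.52 ± 1.75 FPKM in Rab5 RNAi heads and 5.99 ± 0.76 FPKM in controls (SD; log2 difference 0.58, limma adjusted p = 0.00966). Both calls held with any 1 library left out. Akh, the adipokinetic hormone that mobilises stored fat, had 0.504 to 4.10 FPKM in Rab5 RNAi heads, against 0.310 to 0.643 FPKM in controls. It rose by 1.13 on the log2 scale (limma adjusted p = 0.0345), and the call was lost when any 1 of 7 libraries was left out. Its group means were 2.49 FPKM in Rab5 RNAi heads, 0.803 FPKM in Rab7-labelled heads and 0.465 FPKM in controls. Akh thus passed the minimum mean of 1 FPKM only through the group where it was high, and its call is a description. tobi, a glucosidase gene that responds to insulin and adipokinetic hormone, fell by 1.98 (limma adjusted p = 0.0183), and the call was lost without control 1, 2 or 3 (adjusted p = 0.0644, 0.0558 and 0.0647). Voom called neither Akh nor tobi (adjusted p = 0.0753 and 0.0786). Lk6, a kinase of the translation factor eIF4E, fell by 0.30 (limma adjusted p = 0.0378), lost when any 1 of 7 libraries was left out.

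**Figure D5:**
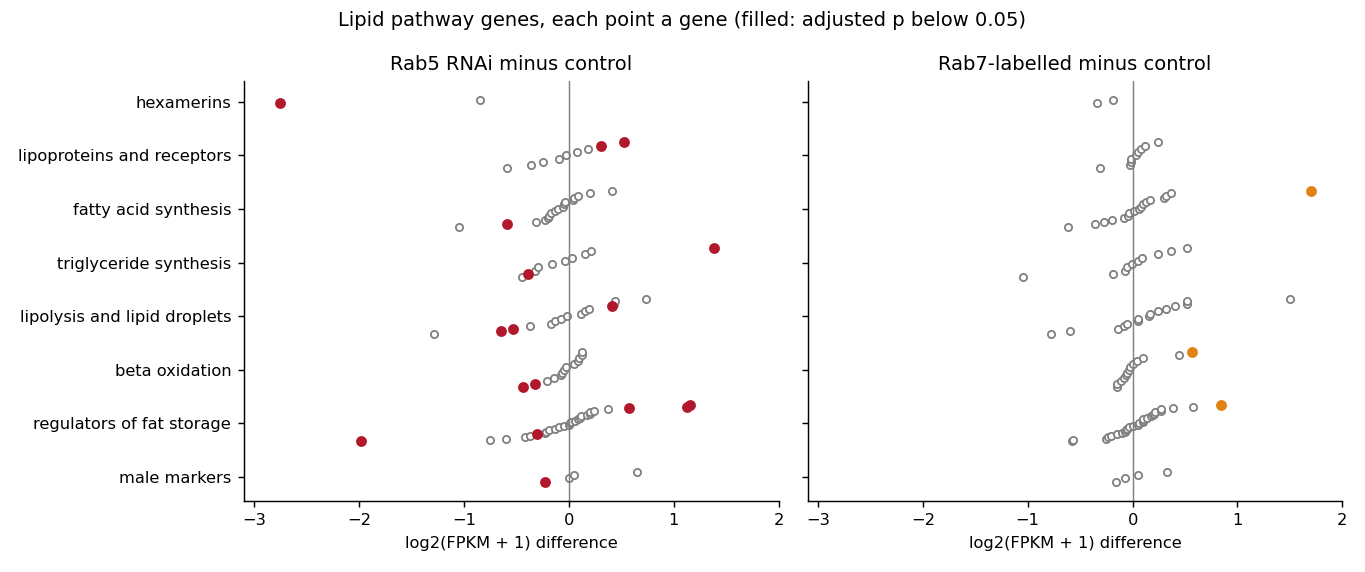
Difference in log2(FPKM + 1) of every tested gene of the lipid pathway lists and of 4 male markers, for Rab5 RNAi minus control (left) and Rab7-labelled minus control (right); filled points passed a limma adjusted p of 0.05 over all tested genes. Filled points fall on both sides of 0 in the left panel, with fu12 at 1.38 and Lsp1beta at -2.76, and only hll, CG9547 and Thor are filled in the right panel.

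In Rab7-labelled heads against controls, 3 of the 94 genes of these lists rose and 0 fell, a share of 3.19% beside 3.21% of all tested genes. hll, an acyl-CoA synthetase, averaged 5.9 ± 1.74 FPKM in Rab7-labelled heads and 1.17 ± 0.788 FPKM in controls (SD, n = 4 each; log2 difference 1.70, limma adjusted p = 0.00664). CG9547, a glutaryl-CoA dehydrogenase gene, averaged 19.4 ± 1.3 FPKM in Rab7-labelled heads and 12.8 ± 1.25 FPKM in controls (SD; log2 difference 0.57, limma adjusted p = 0.00367). That call was lost in set 1 alone (0.48, adjusted p = 0.0988) and in set 1 with control 1 (0.44, adjusted p = 0.0556). Thor, the eIF4E-binding protein, rose by 0.85 (limma adjusted p = 0.0481), and that call was lost when any 1 of 10 libraries was left out (adjusted p up to 0.151). For triglyceride synthesis limma called 0 of 10 genes, 0 had an unadjusted p below 0.05 and voom called 0. For lipolysis and lipid droplets limma called 0 of 15, 4 had an unadjusted p below 0.05 and voom called 0.

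Between Rab5 RNAi and Rab7-labelled heads the same 94 genes held 5 higher and 8 lower ones, a share of 13.8% beside 11.1% of all tested genes (4.67% higher and 6.40% lower). Higher were NLaz (0.54), LpR1 (0.26), fu12 (1.38), Hsl (0.37) and ImpL2 (1.09), each a log2 difference past the limma threshold. Lower, besides FASN1 and Lpin, were Lsp1beta (-2.42), hll (-1.28), CG9186 (-0.40), the lipase gene Lip2 (-0.61), CG9547 (-0.52) and Lk6 (-0.57). The calls of LpR1 and Lip2 were each lost when any 1 of 9 libraries was left out, and that of Lsp1beta without Rab7-labelled 2 (adjusted p = 0.0525) or 3 (0.0525) and in the voom fit (0.0563).

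The genes whose values varied most like each of the 7, after removing group means over the 13 libraries, were ranked by Pearson r among 7645 genes with a mean of at least 5 FPKM. These r values are a description: libraries share their set, and r was also taken after removing set means. Closest to Yp3 were y (r = 0.985), bw (0.977), Fbxl4 (0.976), t (0.976) and Pph13 (0.976), of which bw encodes a transporter of eye pigment precursors and Pph13 a homeodomain factor of photoreceptors. After removing set means their r with Yp3 was 0.484, 0.806, 0.733, 0.407 and 0.458. Closest to apolpp were alpha-Est9 (0.976), Gbp2 (0.976), Mtp (0.957), Apoltp (0.954) and CG2233 (0.953), of which Mtp and Apoltp load lipid onto lipophorin; after removing set means r was 0.934, 0.782, 0.718, 0.535 and 0.509. ACC ran closest to Irbp (0.981), Mal-B2 (0.976) and mino (0.974), the last a glycerol-phosphate acyltransferase gene, and mino's r was 0.306 after removing set means. FASN1 ran closest to CG5958 (0.965), Prat2 (0.963) and spin (0.95). For bmm the closest genes were CG3448 (0.979), AdSL (0.949) and Pfas (0.946), the last 2 encoding enzymes of purine synthesis. Lpin had its closest match in CG7101 (0.961, and 0.956 after removing set means), ahead of P58IPK (0.869). Lsp2 ran closest to CG17328 (0.94), Drep1 (0.934) and salr (0.931), and with the other hexamerin Lsp1beta at 0.93. Yp1 had too few reads for such a ranking.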

How the data were processed

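RNA was sequenced from heads of 13 samples in 3 groups of 5, 4 and 4. The authors deposited FPKM for 18344 genes per sample; the submitters' processing notes name CASAVA, and for the aligner, counter, strand setting, build and annotation nothing is given in the sources used here. Of the series table, 13 per-sample columns were not used, and 591 of its gene models have no name. Coordinates are those of the deposited table; all 9 genes have the same ones in a BDGP6 annotation, as do 99.2% of shared identifiers. All 182918 values above 0, times gene length, were whole reads within 0.05, and recovered reads ran from 17138630 to 21410768 per library. The deposited FPKM were already scaled by median-of-ratios size factors. No libraries agreed within sampling noise (lowest chi-square per gene 8.62 between replicates).

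Genes with a mean of at least 1 FPKM over the 13 libraries (10038) were tested as log2(FPKM + 1), which understates changes of low genes, with limma 3.58.1 in R 4.3.3, with a trend and robust empirical Bayes, all groups in one fit. A gene was called where its Benjamini-Hochberg adjusted p, over all tested genes, was below 0.05. The 9 genes, the lists and the rule for named genes were chosen with earlier results of these data known. The rule took the 9 genes, up to 6 called genes per list and comparison, the 5 genes most like each of the 7 tested (some left out for length), roX1, roX2, fit, Rab5, Rab7 and Act57B; to, yl, Cp18, Fcp3C, Fbp1, GNBP-like3, Apoltp and Mtp (beside apolpp) come from the marker and pathway lists and were named after their values were seen. Planned correlation tests between genes are not given, because libraries fall into 2 sets. Alternatives, among them a limma-voom fit of the recovered reads, are in the closing section. The fit was tried on simulated reads drawn independently, without the library sets seen here. Of 1.5-fold changes it recovered 51.9% for Rab5 RNAi against controls and 47.8% for Rab7-labelled against controls. Between the RNAi groups it recovered 51.5%. Changes of that size can therefore be missed.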

Additional observations from a re-analysis of the deposited data

Results flagged for a closer look

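In 4 of 102 gene and group combinations, over 34 genes, 1 library lay far from the others of its group by Dixon's criterion, which chance passes in about 1 in 20 groups. Act57B, the muscle actin that marks the library sets, was at 1574 FPKM in control 4, while the other controls had 741 to 846 FPKM. Thor, the eIF4E-binding protein, was at 276.7 FPKM in control 4, beside 163 to 172 FPKM in the other controls. InR, the insulin receptor, was at 7.12 FPKM in the same library, beside 5.45 to 5.71 FPKM. The lncRNA roX2 was at 96.5 FPKM in Rab5 RNAi 2, beside 55.1 to 58.7 FPKM in the other Rab5 RNAi heads. None of the 9 yolk protein and lipid genes met this criterion in any group tested.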

How the results depend on the processing

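Yp3 was called lower in Rab5 RNAi heads against controls under all 26 alternatives, with log2 differences of -2.06 to -1.12 and limma adjusted p of 8.62e-05 to 0.0446; Lpin was called under 25 and FASN1 under 17. The alternatives include the fits by set, which lower the spread in advance. They also include fits without a Rab7-labelled library, which leave this log2 difference unchanged. FASN1 lost its call under 9, none of them a fit by set. No result for the 9 genes or all tested genes changed sign past the threshold. Causes of the changes below were not tested. Fits by set are descriptions, since the sets came from these same libraries. The planned quasi-likelihood count test was not run: it was planned only if the unit allowed it, for which values must be whole multiples of 1 step per library, and in FPKM the step depends on gene length. The voom fit of the recovered reads stands in for it.

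In Rab5 RNAi against controls, FASN1 lost its call with no filter on low values (adjusted p = 0.0555, log2 difference -0.59), with plain read totals (-0.50) and with only the 2 groups in the fit (-0.59). Plain read totals gave 1369 genes called higher in all. Set 1 alone called 5 of the genes lower (ACC -0.54, apolpp -1.10, Lsp2 -0.91, with Lpin lost at -0.36). Set 1 with control 1, chosen after seeing the data, called 6 lower (ACC -0.62, apolpp -1.19, Lsp2 -1.14) and 1269 genes higher in all. The set as a term called 1 higher (bmm 0.47), and with control 1 in set 1, also chosen after seeing the data, 1 higher (bmm 0.36) and ACC at -0.39.

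In Rab7-labelled heads against controls, a mean of at least 5 FPKM gave 103 genes lower in all, and only the 2 groups in the fit gave 293 higher and 266 lower. Set 1 alone gave 94 lower, and with control 1 added 252 higher. The set as a term called 1 gene higher (bmm 0.52), with 281 higher and 245 lower in all; with control 1 in set 1 it called 1 higher (bmm 0.42), with 314 higher and 315 lower.

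Between Rab5 RNAi and Rab7-labelled heads, plain read totals called 1 of the genes lower (FASN1 lost at -0.56) and 1218 genes higher in all. Only the 2 groups in the fit called 1 lower (FASN1 lost at -0.67), with 271 higher and 411 lower in all. Set 1 alone called 5 lower (Yp3 -0.78, ACC -0.70, apolpp -1.18, Lsp2 -1.24, with Lpin lost at -0.31). Set 1 with control 1 called the same number, 5, at the same differences (Lpin adjusted p = 0.0634), with 720 higher in all. The set as a term brought in ACC (-0.59); with control 1 in set 1 it called 4 lower (Yp3 -0.94, ACC -0.59), with 768 higher and 971 lower in all.

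Leaving out 1 library at a time, the log2 difference between Rab5 RNAi and controls ran from -0.72 to -0.50 for FASN1, -0.87 to -0.42 for apolpp and -1.32 to -0.54 for Lsp2, with 523 to 858 genes higher in all. For Rab7-labelled heads 80 to 183 genes were higher and 87 to 198 lower. Between the RNAi groups 1 to 4 of the genes were lower, FASN1 ran from -0.80 to -0.59, ACC from -0.77 to -0.52 and apolpp from -0.95 to -0.50, with 292 to 455 genes higher in all.

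The labels share replicate numbers between groups, but same-numbered libraries correlated in their deviations at -0.159 to 0.303, with 7 of 12 pairs above 0.1, and 9 of 24 best matches were the library's own number, so the numbers were not taken as pairs. With the replicate block, Rab5 RNAi against controls had 1 gene higher (bmm 0.36) and 5 lower, adding ACC (-0.45) and apolpp (-0.87). Rab7-labelled heads then had 1 higher (bmm 0.52), and Rab5 RNAi against Rab7-labelled heads 4 lower, adding ACC (-0.77) and apolpp (-0.95).

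Over the list counts and single genes named beside the 9, 2911 values kept their direction and side, 205 counts moved, 128 calls were lost and 20 gained. Yp1 and Yp2, with 89 and 167 reads in all, are limited by depth.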

Other observations

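Markers of other cell types that share lipid genes with the fat body, or that a head could carry, were read in the same libraries as summed FPKM. The 9 oenocyte markers, from cells that make cuticle hydrocarbons, summed to 91.4 to 130.4 in Rab5 RNAi heads, 101 to 111 in Rab7-labelled heads and 107 to 123 in controls. The 12 hemocyte markers summed to 123 to 212 in Rab5 RNAi heads, 112 to 137 in Rab7-labelled heads and 154 to 209 in controls. Of 11 tested hemocyte markers, limma called 4 lower in Rab7-labelled heads than in controls, beside 1.56% of all tested genes, and 5 higher in Rab5 RNAi than in Rab7-labelled heads, beside 4.67%. In Rab5 RNAi heads against controls limma and voom each called 0 of the 11, and 1 (srp) had an unadjusted p below 0.05. The 11 midgut markers, mostly the amylases Amy-p and Amy-d, summed to 12.3 to 79.5 in Rab5 RNAi heads, 36.7 to 140.7 in Rab7-labelled heads and 75.3 to 181 in controls. Of 4 tested midgut markers, limma called 2 lower in Rab5 RNAi heads than in controls (median log2 difference -1.32), beside 9.28% of all tested genes. In Rab7-labelled heads it called 1 lower (median -0.85), beside 1.56%. Between the RNAi groups it called 0. Male accessory gland and testis markers, 13 genes, summed to at most 4.36 in any library. The part of these cells in the values of the 9 genes was not tested.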
